A study of Mus musculus with 6 samples.

Results

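The genes described here are markers of endothelium, the lining of blood vessels, measured in mouse liver tumours. The set held 33 genes chosen by symbol from 39179 genes listed, 6 of sinusoidal endothelium (Stab1, Stab2, Lyve1, Gpr182, Clec4g and Oit3) and 27 other vessel genes, and all 33 were found and passed the filter on low values. They were measured by poly(A) RNA-seq in liver tumours of wildtype C57BL/6 mice. Both groups had received transposons, DNA that inserts its cargo into the genome, by hydrodynamic injection, a fast large-volume injection that reaches hepatocytes, and both carried Myc. The Myc/NrasG12V group also carried NrasG12V, an activated form of the GTPase Nras, and the Myc/Akt1 group Akt1, a kinase of insulin and growth factor signalling. There were 3 libraries of each. The labels gave no age, sex or time after injection, and do not say whether each library is from its own animal. The p-values therefore measure the spread between these libraries, which may be technical.

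Liver sinusoids are capillaries lined by fenestrated endothelial cells that lack an ordinary basement membrane. These cells clear waste from portal blood through scavenger receptors such as the stabilins, and ordinary capillary and arterial endothelium carries little of those receptors. In chronic liver disease and in liver tumours sinusoidal cells are known to lose such receptors. This change, called capillarisation, also brings surface proteins of ordinary capillaries such as CD34. Whether the groups differ in capillarisation was not tested. Vessel genes outside the sinusoidal set moved both ways, with Cd34 lower and Vwf higher in Myc/NrasG12V. The RNA came from whole tumour tissue, and which cells made each transcript was not measured. In such bulk RNA fewer cells of a type and less RNA per cell cannot be told apart.

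The libraries held 17881282 to 27865094 reads, so that 1 read was worth 0.0359 to 0.0559 CPM, the unit of the deposited values, which scales each gene's reads to the total of its library. Differences below are Myc/NrasG12V minus Myc/Akt1 on log2(CPM + 1), which understates the change of low genes, and adjusted p-values are from limma over 14365 genes tested. A gene that did not pass is not thereby shown to be equal between groups. The median log2 difference of all these genes was -0.26, and with TMM factors, which correct for the make-up of a library, 0.0049, so differences are to be read against that shift. On the second principal component, with 11.6% of the variance, replicate 3 of Myc/NrasG12V lay far from the other 2 libraries of that group. A list of 10 hepatocyte genes, albumin among them, summed to 151886 to 197182 CPM in Myc/NrasG12V and 46121 to 62040 CPM in Myc/Akt1, a sum that rests mostly on albumin, which did not pass. Of the 10, 4 were higher and 1, Cyp3a11, lower, or 40.0% and 10.0% against 10.0% and 29.5% of all genes. Ttr, Asgr1 and Cyp3a11 had groups apart in the lower direction. The endothelial defining genes Pecam1 and Cdh5 were detected in each, at 23.3 to 48.9 and 25.8 to 63.5 CPM.

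The sinusoidal genes were higher in Myc/NrasG12V and most other vessel genes were not. Of the 6 sinusoidal genes 5 passed the test as higher and 0 as lower, and for all 6 every Myc/NrasG12V library lay above every Myc/Akt1 library. Among all genes tested 10.0% passed as higher. Groups that did not overlap were found for 52.7% of all genes, 14.8% higher and 38.0% lower, and for 13 of the 33 vessel genes, 8 higher and 5 lower. The median log2 difference was 1.36 for the sinusoidal genes and -0.26 for the 27 others, the latter equal to that of all genes tested at this precision. Of the 27 others 2 were higher, Vwf and Esm1, and 4 lower, Aplnr, Cd34, Cdh5 and Apln, against 29.5% lower among all genes. Over the 33 genes 11, or 33.3%, changed, near the 39.5% of all genes. With TMM factors 8 of the 33 were higher, all 6 sinusoidal genes among them, and only Aplnr was lower, against 34.1% of all genes changed, 16.2% higher and 17.9% lower. With edgeR on whole reads 9 were higher and 1 lower, against 34.1% changed, 16.6% higher and 17.5% lower.

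**Figure D1:**
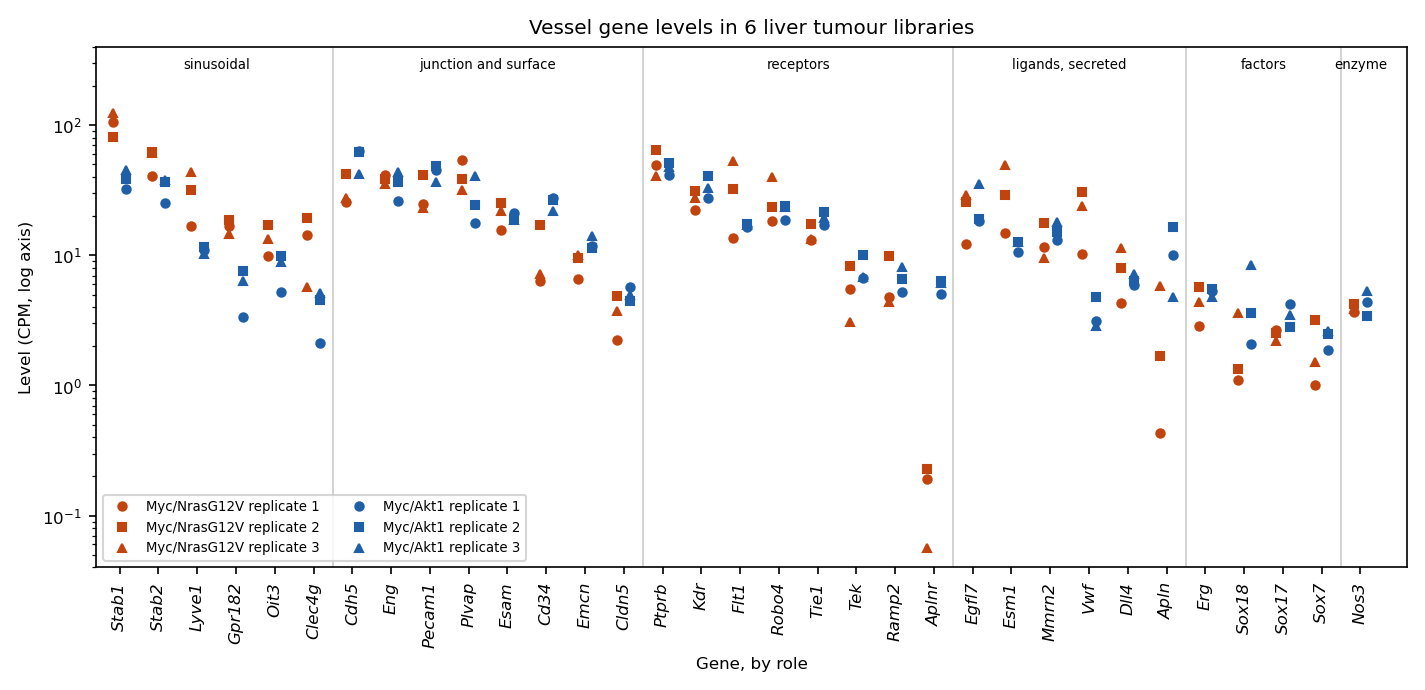
Level of each of the 33 vessel genes in each of the 6 libraries, in CPM on a log axis, with genes grouped by role (the factors are transcription factors) and 1 symbol per library. The 6 sinusoidal genes on the left have separate groups, while most other genes overlap and Aplnr is the lowest gene in Myc/NrasG12V.

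Stab1 (ENSMUSG00000042286, GRCm38 chromosome 14, 31139013 to 31168641, minus strand), a scavenger receptor also made by some macrophages, was at 107, 81.2 and 125 CPM in Myc/NrasG12V and 32.5, 38.8 and 45.3 CPM in Myc/Akt1. It was the most abundant of the set in CPM in every Myc/NrasG12V library. It was 2.68-fold higher, with a log2 difference of 1.39 (95% interval 0.92 to 1.87, limma adjusted p = 0.00132). Stab2, the main hyaluronan clearance receptor of sinusoids, was at 41.1, 62.4 and 61.1 CPM against 25.5, 36.9 and 37.7 CPM. The groups were apart by less than for Stab1. It was 1.65-fold higher (log2 difference 0.70, limma adjusted p = 0.0409), and the call ended when any 1 of 4 libraries was left out, replicates 2 and 3 of Myc/NrasG12V and replicates 1 and 2 of Myc/Akt1 (adjusted p up to 0.153).

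Lyve1, a hyaluronan receptor of sinusoidal and lymphatic endothelium, was at 16.9, 31.9 and 43.5 CPM in Myc/NrasG12V and 10.9, 11.7 and 10.2 CPM in Myc/Akt1. The Myc/Akt1 libraries lay close together and the Myc/NrasG12V ones spread widely, with replicate 1 lowest. The fold was 2.82 (log2 difference 1.32, interval 0.60 to 2.04, limma adjusted p = 0.0114). Gpr182, an atypical chemokine receptor, was at 16.9, 18.5 and 14.5 CPM against 3.35, 7.54 and 6.36 CPM. All Myc/NrasG12V libraries stood well above the highest Myc/Akt1 library. Gpr182 was 2.89-fold higher (log2 difference 1.43, limma adjusted p = 0.00503).

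Clec4g, a C-type lectin of sinusoids, was at 14.4, 19.4 and 5.76 CPM against 2.12, 4.56 and 5.14 CPM. Here Myc/NrasG12V replicate 3 was low and came near the highest Myc/Akt1 library. Clec4g was 3.34-fold higher (log2 difference 1.44, interval 0.45 to 2.43, limma adjusted p = 0.0290), and the call ended when replicate 1 or 2 of either group was left out (adjusted p up to 0.106). Oit3, a secreted protein with a zona pellucida domain, was at 9.98, 17.1 and 13.3 CPM against 5.22, 9.87 and 8.95 CPM. Its groups nearly met, and it did not pass (log2 difference 0.69, limma adjusted p = 0.0916), but it passed with TMM factors (adjusted p = 0.0344) and with edgeR on whole reads (adjusted p = 0.0354).

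**Figure D2:**
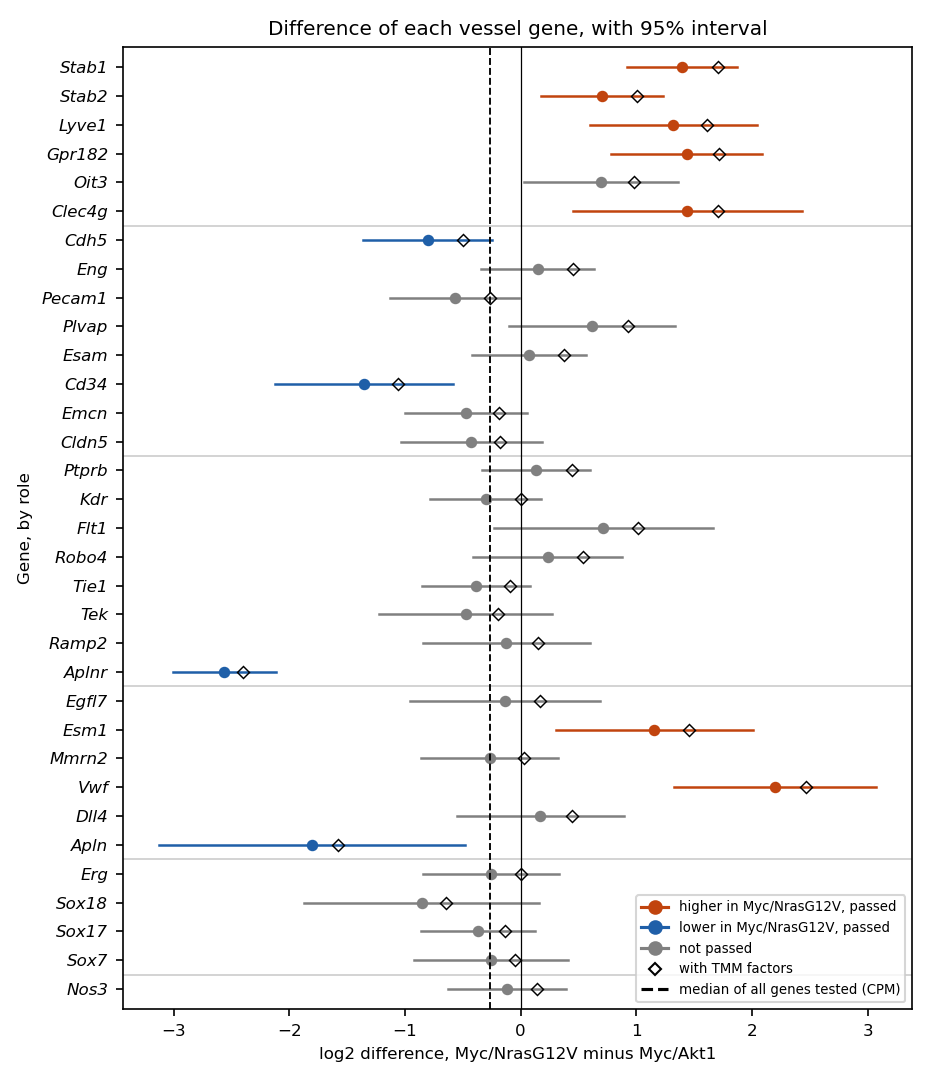
Log2 difference of each vessel gene, Myc/NrasG12V minus Myc/Akt1 (filled points, with 95% limma intervals), and the same with TMM factors (open diamonds); the dashed line is the median of all genes tested on the CPM scale, -0.26. All 6 sinusoidal genes lie to the right of 0, Vwf farthest to the right of all at 2.20 and Aplnr farthest to the left at -2.56.

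Because vessel content can differ between tumours, levels were also set against a gene of all endothelium in the same library, which removes the library scale. Sinusoidal genes took 35.8%, 30.1% and 35.0% of the reads of the 33 genes in Myc/NrasG12V and 15.4%, 17.8% and 18.8% in Myc/Akt1. Without Stab1 the shares were 21.2%, 21.8% and 22.0% against 9.75%, 12.3% and 12.2%, so the groups stayed apart without the most abundant gene. Per 100 reads of Cdh5, the junction protein VE-cadherin, Stab2 had 159, 148 and 222 reads in Myc/NrasG12V and 40.1, 59.6 and 88.9 in Myc/Akt1. Per 100 reads of Pecam1, a second gene of all endothelium, Stab2 had 166, 150.4 and 263 against 56.5, 75.4 and 102. Against either gene the groups of Stab2 did not overlap. Separation against Cdh5 was not particular to sinusoidal genes. Per 100 Cdh5 reads Ptprb, another vessel gene, had 193, 155 and 149 reads against 64.9, 83.1 and 112. Eng had 161, 92.6 and 129 against 41.1, 58.8 and 104, with groups that overlapped, as did those of Pecam1 and Kdr. These ratios are descriptions without a test, and Cdh5 itself was among the lower genes.

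**Figure D3:**
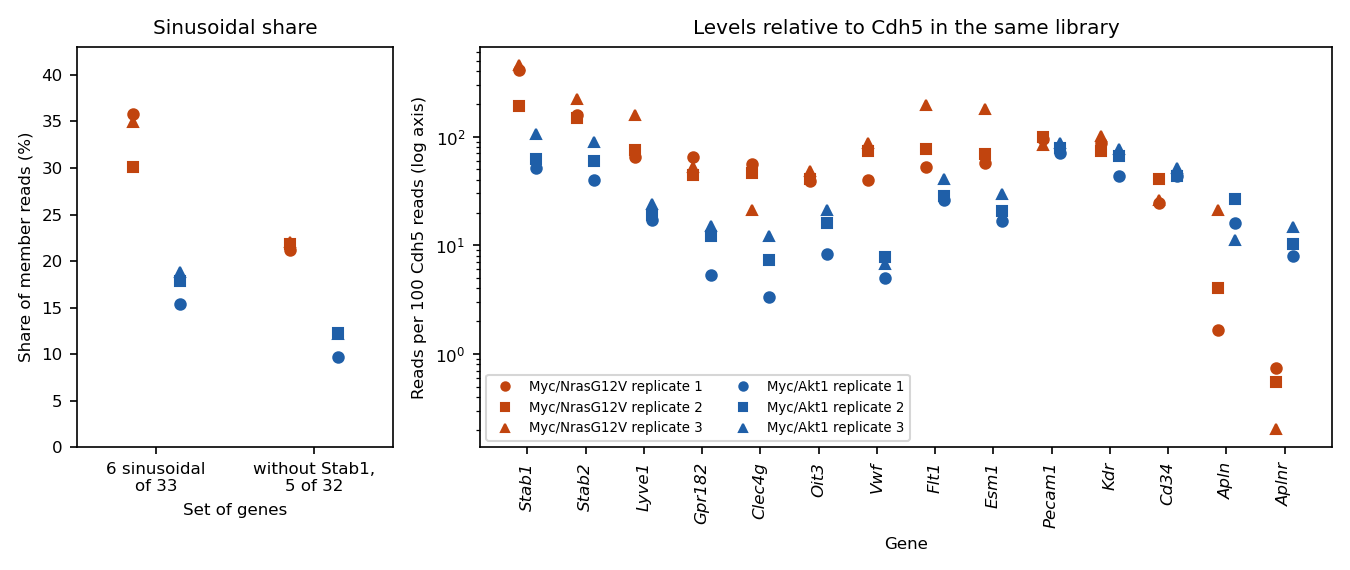
Left, percent of the reads of the vessel genes that fell on the sinusoidal genes in each library, with and without Stab1, on an axis from 0; right, reads of 14 genes per 100 Cdh5 reads of the same library, on a log axis. The sinusoidal share was 30.1% to 35.8% in Myc/NrasG12V and 15.4% to 18.8% in Myc/Akt1. Per 100 Cdh5 reads Pecam1, Kdr and Apln overlapped between groups. Without overlap, Vwf, Flt1 and Esm1 lay higher and Cd34 and Aplnr lower in Myc/NrasG12V.

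Macrophages make Stab1 and, in some tissues, Lyve1, and their markers moved the same way. Of 12 macrophage and Kupffer cell genes 5 were higher and 0 lower, or 41.7% and 0% against 10.0% and 29.5% of all genes. Their median log2 difference was 0.76, and their summed level was 371.5 to 678 CPM in Myc/NrasG12V against 229.6 to 299.3 CPM in Myc/Akt1. Cd5l, a secreted Kupffer cell protein, had 194, 112 and 61.1 CPM in Myc/NrasG12V, all above its 34.6, 47.6 and 33.9 CPM in Myc/Akt1 (limma adjusted p = 0.0127). Over the Myc/NrasG12V libraries the macrophage sum was 678, 425.1 and 371.5 CPM. The complement gene C1qb, at 67.9 against 45.9 CPM, did not pass (limma adjusted p = 0.0877), and Clec4f, which marks Kupffer cells, was 2.40-fold higher (limma adjusted p = 0.0230, and 0.0851 at most with 1 library left out). The part of macrophages in the Stab1 and Lyve1 results was not tested. Among lymphatic genes, which bear on Lyve1, Pdpn was at 0.287, 1.93 and 0.168 CPM in Myc/NrasG12V and 0.382, 0.646 and 0.318 CPM in Myc/Akt1, too low to be tested. Ccl21a was at 0.669, 5.05 and 0.224 CPM against 0.0424, 0.0718 and 0.636 CPM and did not pass. Both were high in Myc/NrasG12V replicate 2 alone; without it Pdpn was lower in Myc/NrasG12V, at 0.506 times its Myc/Akt1 mean, and the Ccl21a ratio fell from 7.92 to 1.78, while without Myc/Akt1 replicate 3 it was 34.7. Of 5 lymphatic genes tested 2, Reln and Flt4, were higher, or 40.0% against 10.0% of all genes. Flt4 also stands in the second list of sinusoidal genes below, so the lists are not independent. The summed level of the lymphatic list was 195 to 246 CPM against 93.4 to 183 CPM. Prox1, which hepatocytes also make, took 84.9 and 102 CPM of those sums. A part of lymphatic cells in the Lyve1 result was not tested.

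A second list of genes known in sinusoidal endothelium, none of them in the set above, moved both ways. Of 17 tested 7 were higher and 2 lower, or 41.2% and 11.8% against 10.0% and 29.5% of all genes. Their median log2 difference was 0.32. Fcgr2b, an inhibitory antibody receptor that clears immune complexes, was at 35.6, 42.1 and 27.9 CPM against 9.88, 12.2 and 11.4 CPM (3.16-fold, limma adjusted p = 8.29e-04). Ntn4, a netrin of vessel basement membranes, was 3.18-fold higher (limma adjusted p = 0.00133). The others that rose were Flt4, Clec1b, Fcna, Tspan7 and Mrc1, and Fcgr2b, Fcna and Mrc1 are also made by macrophages. The part of macrophages, platelets and other cells in these rises was not tested. Cd36, a fatty acid carrier that hepatocytes also make, went the other way, at 41.7, 50.4 and 44.7 CPM against 738, 572 and 406 CPM (limma adjusted p = 3.78e-05). Gata4, the transcription factor that maintains sinusoidal identity, was lower in Myc/NrasG12V, with 4.11, 6.84 and 5.20 CPM against 9.76, 12.8 and 7.59 CPM (limma adjusted p = 0.0461), but not with TMM factors (adjusted p = 0.173).

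RefSeq promoters (GRCm38.p6) were found for 17 of the 33 genes, in 21 entries, and 4 are shown because their genes moved in opposite directions. Each runs over the 250 bases before the start, 5′ to 3′ on the gene's strand, and Stab1 and Clec4g were higher while Cd34 and Apln were lower in Myc/NrasG12V. Capitals mark AGGAAG, a core bound by ETS factors such as ERG, and ACAATG, bound by SOX factors, searched on both strands so that CTTCCT and CATTGT count as well; adjacent matches can share bases, as at the pair of AGGAAG in Clec4g.
Stab1, chr14:31168642-31168891, minus strand: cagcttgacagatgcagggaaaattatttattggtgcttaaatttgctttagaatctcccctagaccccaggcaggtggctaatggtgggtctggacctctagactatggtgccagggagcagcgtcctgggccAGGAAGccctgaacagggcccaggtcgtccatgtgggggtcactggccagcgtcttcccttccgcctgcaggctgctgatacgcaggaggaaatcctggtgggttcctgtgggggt
Clec4g, chr8:3720652-3720901, minus strand: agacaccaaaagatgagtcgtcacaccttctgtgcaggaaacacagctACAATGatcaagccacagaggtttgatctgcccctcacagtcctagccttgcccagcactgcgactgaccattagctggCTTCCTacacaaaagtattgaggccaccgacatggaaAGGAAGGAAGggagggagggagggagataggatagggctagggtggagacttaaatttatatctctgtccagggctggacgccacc
Cd34, chr1:194938571-194938820, plus strand: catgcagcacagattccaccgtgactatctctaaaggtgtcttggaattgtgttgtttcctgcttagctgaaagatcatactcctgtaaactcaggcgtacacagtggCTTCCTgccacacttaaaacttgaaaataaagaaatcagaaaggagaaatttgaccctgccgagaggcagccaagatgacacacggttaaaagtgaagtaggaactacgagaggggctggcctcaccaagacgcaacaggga
Apln, chrX:48034854-48035103, minus strand: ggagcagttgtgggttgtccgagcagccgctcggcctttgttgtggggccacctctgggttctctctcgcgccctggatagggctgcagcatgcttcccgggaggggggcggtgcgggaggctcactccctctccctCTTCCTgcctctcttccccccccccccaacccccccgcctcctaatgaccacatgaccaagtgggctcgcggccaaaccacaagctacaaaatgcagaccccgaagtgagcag
AGGAAG was found in the 4 promoters shown and in 13 of the 21 entries, against 29.5% of 32851 promoter windows of this length. The entries are not independent, since Egfl7 and Erg have several each, and the difference in share was not tested. ACAATG was found in 2 entries, of Clec4g and of 1 Erg start, against 10.7% of windows, and GATAAG, bound by GATA factors (CTTATC on the other strand), in 1 entry, of Erg, against 6.55%. Among called genes with an entry, AGGAAG was found for Stab1, Stab2 and Clec4g, which were higher, and for Cd34 and Apln, which were lower, and was not found in the window of Esm1, which was higher. A match describes letters and is not a site.

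Of 8 junction and surface genes 0 were higher and 2 lower, or 0% and 25.0% against 10.0% and 29.5% of all genes. Cd34 (ENSMUSG00000016494, GRCm38 chromosome 1, 194938819 to 194961279, plus strand), a sialomucin of capillary endothelium and blood progenitors, was at 6.35, 17.1 and 7.21 CPM in Myc/NrasG12V and 27.8, 26.7 and 21.8 CPM in Myc/Akt1. Its groups were apart, and Myc/NrasG12V replicate 2 lay nearest to Myc/Akt1. Cd34 was 2.49-fold higher in Myc/Akt1, or 3.75-fold without that library (log2 difference -1.35, limma adjusted p = 0.0135), with an adjusted p of 0.0512 with TMM factors and 0.0524 without Myc/Akt1 replicate 1. Cdh5 was at 25.8, 42.1 and 27.6 CPM against 63.5, 61.9 and 42.4 CPM, so Myc/NrasG12V replicate 2 and Myc/Akt1 replicate 3 nearly met. It was 1.76-fold higher in Myc/Akt1 (log2 difference -0.81, limma adjusted p = 0.0291), but not with TMM factors (adjusted p = 0.164), nor with replicate 1 or 3 of Myc/NrasG12V or replicate 1 or 2 of Myc/Akt1 left out (adjusted p up to 0.109).

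The other 6 surface genes did not pass. Pecam1, an adhesion protein of all endothelium, was at 24.7, 41.5 and 23.3 CPM against 45.1, 48.9 and 36.8 CPM (limma adjusted p = 0.0959, and 0.0233 without Myc/NrasG12V replicate 2). Plvap, which forms the diaphragms of fenestrae and marks vessels with basement membrane in liver, was at 53.8, 38.9 and 31.8 CPM against 17.6, 24.3 and 41.0 CPM. Only Myc/Akt1 replicate 3 reached the Myc/NrasG12V range for Plvap, and without it the gene passed (adjusted p = 0.0326, against 0.152 with all libraries). Per kilobase of annotated exon Plvap had the highest mean level of the 33 genes, 17.4 CPM per kb over all libraries. Eng, a co-receptor for BMP ligands, was at 38.7 against 35.5 CPM and the junction protein Esam at 21.1 against 19.6 CPM. The sialomucin Emcn was at 8.77 against 12.4 CPM, with groups that did not overlap, and the tight junction claudin Cldn5 at 3.62 against 5.06 CPM.

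Of 8 receptor genes 1 changed, or 12.5% against 39.5% of all genes. Aplnr (ENSMUSG00000044338, GRCm38 chromosome 2, 85136225 to 85139923, plus strand), the receptor of the peptide apelin, had 4, 5 and 1 reads in the Myc/NrasG12V libraries, or 0.191, 0.230 and 0.0559 CPM, and 5.05, 6.35 and 6.18 CPM in Myc/Akt1. It was thus near absent from all Myc/NrasG12V libraries, with 10 reads over the group against 432. Its mean was 36.9-fold higher in Myc/Akt1, a size that rests on those few reads (log2 difference -2.56, interval -3.01 to -2.12, limma adjusted p = 7.60e-05). Aplnr was called in the same direction under each of the 16 alternatives, and relative to 100 Cdh5 reads it had 0.203 to 0.741 reads in Myc/NrasG12V and 7.95 to 14.6 in Myc/Akt1.

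The other 7 receptor genes of the set did not pass, the VEGF receptors Kdr and Flt1 and the angiopoietin receptor Tek among them. Kdr, the main VEGF receptor, was at 22.4, 31.0 and 27.8 CPM against 27.4, 40.9 and 32.9 CPM (log2 difference -0.30, interval -0.78 to 0.18). Flt1, a VEGF receptor that also exists as a soluble trap, was at 13.5, 32.1 and 53.6 CPM against 16.6, 17.5 and 17.2 CPM. The Myc/Akt1 libraries were nearly equal for Flt1, while Myc/NrasG12V replicate 1 lay below them and the other two above. Its limma adjusted p was 0.203, 0.0111 without Myc/NrasG12V replicate 1 and 0.0416 with edgeR. The angiopoietin receptor Tek was at 5.61 against 7.83 CPM and its partner Tie1 at 14.7 against 19.4 CPM. Ptprb, a phosphatase that acts on Tek and VE-cadherin, was at 52.0 against 46.7 CPM, Robo4, a guidance receptor that stabilises vessels, at 27.4 against 22.0 CPM, and Ramp2, part of the adrenomedullin receptor, at 6.34 against 6.68 CPM. Of the 3301 exon bases of Ramp2, 1103 also belong to Vps25 on the same strand, so its reads are uncertain.

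Of 6 genes of ligands and secreted proteins 2 were higher and 1 lower, or 33.3% and 16.7% against 10.0% and 29.5% of all genes. Apln, the ligand of Aplnr and a gene of sprouting tip cells, was at 0.430, 1.70 and 5.82 CPM in Myc/NrasG12V and 10.1, 16.4 and 4.77 CPM in Myc/Akt1. The groups overlapped, because Myc/NrasG12V replicate 3 exceeded Myc/Akt1 replicate 3. Apln was 3.95-fold higher in Myc/Akt1, or 9.82-fold without Myc/NrasG12V replicate 3 (log2 difference -1.80, interval -3.13 to -0.48, limma adjusted p = 0.0372). The call ended with TMM factors (adjusted p = 0.0699), with edgeR (0.118), with the replicate number as a block (0.0512) and when replicate 1 or 2 of either group was left out (up to 0.126).

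Esm1, a secreted proteoglycan and another tip cell gene, went the opposite way, at 14.8, 29.1 and 49.2 CPM against 10.6, 12.7 and 12.6 CPM. As for Flt1, the Myc/Akt1 libraries were close together and the Myc/NrasG12V ones spread widely, with replicate 1 lowest and replicate 3 highest. Esm1 was 2.6-fold higher in Myc/NrasG12V (limma adjusted p = 0.0381), and without any one library other than Myc/NrasG12V replicate 1 the adjusted p was 0.0640 to 0.111. Dll4, a Notch ligand of tip and arterial cells, was at 4.30, 8.03 and 11.4 CPM against 5.94, 6.32 and 7.18 CPM and did not pass (limma adjusted p = 0.704). Of the 3 tip cell genes, Esm1 was called higher, Apln was called lower and Dll4 did not pass. The Esm1 call was kept under 10 of 16 alternatives and the Apln call under 6 of 16. Egfl7, a matrix protein of vessels, was at 22.3 against 24.3 CPM and Mmrn2, an endothelial matrix protein, at 12.9 against 15.4 CPM.

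Vwf (ENSMUSG00000001930, GRCm38 chromosome 6, 125546774 to 125686679, plus strand), the von Willebrand factor that tethers platelets and is made by large-vessel endothelium and megakaryocytes, was at 10.3, 30.8 and 23.9 CPM in Myc/NrasG12V and 3.14, 4.77 and 2.86 CPM in Myc/Akt1. The groups were well apart. Vwf was 6.03-fold higher, the largest rise of the set (log2 difference 2.20, interval 1.33 to 3.07, limma adjusted p = 0.00263), and per 100 Cdh5 reads it had 40.0 to 86.6 reads against 4.94 to 7.71. Platelet and megakaryocyte genes moved with it: all 6 of the 9 that were tested were higher, against 10.0% of all genes. The summed level of the 9 was 27.9 to 43.3 CPM against 4.5 to 7.3 CPM. Pf4, a platelet chemokine, was at 3.96, 7.30 and 7.38 CPM against 2.08, 1.33 and 1.18 CPM. Both it and Vwf were lowest in replicate 1 of Myc/NrasG12V, which held that group's lowest value for 21 of the 33 vessel genes. Itga2b, the platelet integrin, was 4.05-fold higher, and the chemokine gene Ppbp was at 8.36, 16.2 and 8.56 CPM against 0.0848, 0.108 and 0.636 CPM, a ratio of means of 40.0 that was 114.7 without Myc/Akt1 replicate 3. Of 8 red cell genes tested 7 were higher, or 87.5% against 10.0% of all genes. The globin genes Hbb-bs, Hba-a1 and Hbb-bt were the most abundant, and the summed level was 301 to 1869 CPM against 49.3 to 101 CPM. The part of megakaryocytes, platelets and blood in the Vwf result was not tested.

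**Figure D4:**
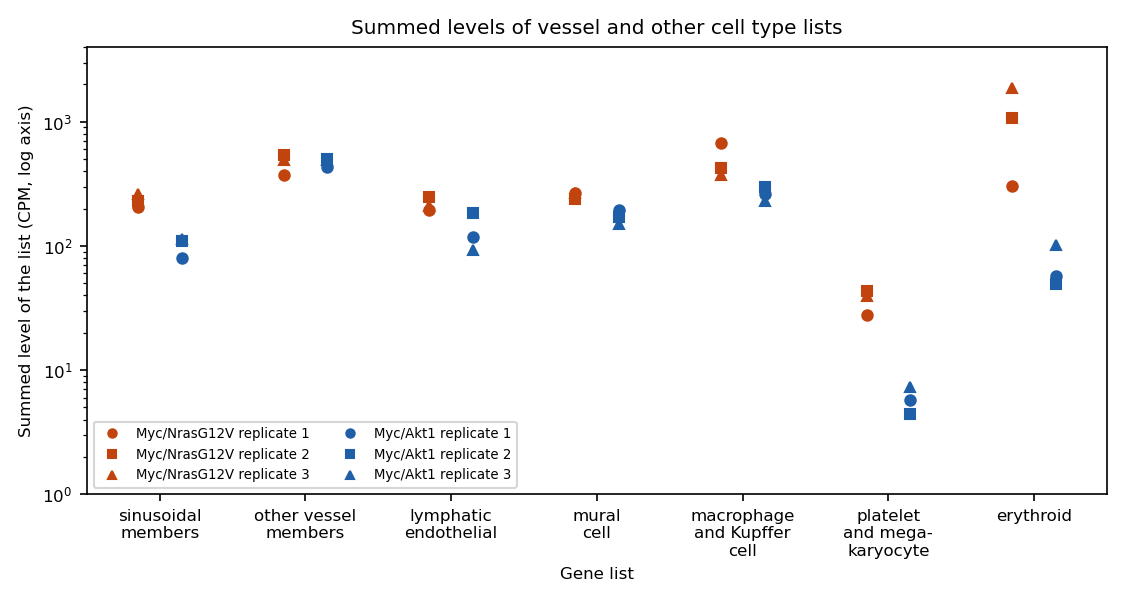
Summed CPM, on a log axis, of the 6 sinusoidal genes, the 27 other vessel genes and 5 lists of other cell types in each library. The sinusoidal sum and those of the 5 other cell type lists do not overlap between groups, while the sum of the other vessel genes was 369.6 to 535.7 CPM in Myc/NrasG12V and 436.2 to 503.7 CPM in Myc/Akt1.

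The 4 transcription factor genes did not pass. Erg, an ETS factor that maintains endothelial identity, was at 2.87, 5.74 and 4.42 CPM against 5.35, 5.49 and 4.82 CPM (log2 difference -0.25, interval -0.84 to 0.33). Of the SOXF factors, which act in vessel growth and arterial fate, Sox17 was at 2.46 against 3.50 CPM, with groups that did not overlap, and Sox7 at 1.00, 3.21 and 1.51 CPM against 1.87, 2.48 and 2.64 CPM, 1.22-fold higher in Myc/Akt1, with 1.85-fold without Myc/NrasG12V replicate 2 and 0.985-fold without replicate 1. Sox18 was at 1.10, 1.33 and 3.58 CPM against 2.08, 3.59 and 8.41 CPM, 2.34-fold higher in Myc/Akt1, or 3.86-fold without Myc/NrasG12V replicate 3 and 1.41-fold without Myc/Akt1 replicate 3 (limma adjusted p = 0.158, and 0.0246 with the replicate number as a block). Nos3, the endothelial nitric oxide synthase, was at 3.68, 4.22 and 3.86 CPM against 4.37, 3.45 and 5.32 CPM (log2 difference -0.12, interval -0.62 to 0.39), but 1334 of its 4132 exon bases are shared with genes of the other strand.

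Of 27 further vessel genes tested 1 was higher and 3 lower, or 3.70% and 11.1% against 10.0% and 29.5% of all genes. Their median log2 difference was -0.06, against -0.26 for all genes. The 1 higher, Selp, encodes P-selectin of platelets and activated endothelium and was at 3.44, 4.82 and 2.91 CPM against 0.594, 0.467 and 0.591 CPM (limma adjusted p = 8.10e-04). Lower were Hspg2, the matrix protein perlecan (39.9 against 65.1 CPM, limma adjusted p = 0.0187), Cd93, an endothelial adhesion receptor (34.0 against 61.8 CPM, limma adjusted p = 0.0337), and the sphingosine phosphate receptor gene S1pr1. These 3 calls ended with TMM factors (adjusted p = 0.151, 0.148 and 0.152). Vcam1, an adhesion protein of inflamed endothelium, overlapped between groups, at 105, 67.3 and 50.8 CPM against 87.6, 111 and 58.9 CPM (limma adjusted p = 0.597).

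Of 29 tested genes of VEGF, angiopoietin, apelin, Notch and BMP signals to vessels 3 were higher and 4 lower, or 10.3% and 13.8% against 10.0% and 29.5% of all genes, so the higher share was near that of all genes. With TMM factors 6 were higher and 2 lower, against 16.2% and 17.9% of all genes. Vegfa, the principal vessel growth factor, was at 123, 177 and 160 CPM in Myc/NrasG12V and 83.5, 87.2 and 139 CPM in Myc/Akt1. It overlapped through Myc/Akt1 replicate 3 and did not pass (limma adjusted p = 0.0792), but it passed with TMM factors (adjusted p = 0.0229). Angpt2, which destabilises vessels, was at 7.35, 6.52 and 20.9 CPM against 4.96, 6.50 and 3.04 CPM, with 1 high library, Myc/NrasG12V replicate 3; the ratio of means was 2.39, and 1.43 without it (limma adjusted p = 0.101). Adm, the peptide adrenomedullin that signals through Ramp2, was at 4.92, 6.01 and 6.43 CPM against 2.04, 2.37 and 0.954 CPM (limma adjusted p = 0.00504). Slit3, of the family of guidance ligands, was at 1.58 against 0.117 CPM (limma adjusted p = 0.00224). Nrp2, a VEGF and semaphorin co-receptor, was 4.68-fold higher in Myc/Akt1, at 42.1, 45.8 and 24.7 CPM against 9.12, 9.73 and 5.20 CPM (limma adjusted p = 0.00121). Apela, the other apelin receptor ligand, had 0 reads in all 6 libraries.

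The vessel genes varied more among the Myc/NrasG12V libraries. The coefficient of variation over 3 libraries was larger there for 25 of the 33 genes, with a median of 34.0% against 17.4% in Myc/Akt1. It was not taken over all genes, so whether this spread is particular to vessel genes was not tested. On the second principal component, over all genes tested, Myc/NrasG12V lay at 30.2, 24.3 and -46.2 and Myc/Akt1 at -4.16, 2.84 and -7.03. Replicate 1 of Myc/NrasG12V held the lowest value of its group for 21 genes and replicate 2 the highest for 20. The 10 genes Flt1, Esm1, Lyve1, Robo4, Dll4, Apln, Stab1, Egfl7, Emcn and Sox18 were instead highest in replicate 3. There Flt1 was 3.97-fold above the lowest library of that group, against 1.06-fold between the extremes of Myc/Akt1. In Myc/Akt1 replicate 1 was lowest for 21 genes, and among them were 5 of the 6 sinusoidal genes.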

How the data were processed

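The deposited tables, 1 per library, give CPM in a column named reads. Per the submitters' processing notes STAR 2.6.1c, Subread 1.6.3, edgeR 3.22.5 and GRCm38 were used; annotation release, strand setting and multi-mapped reads are not given in the sources used here. The values step in units of 1 read, and 100% of them gave whole reads to within 0.01. Genes passing filterByExpr (0.457 CPM in 3 libraries, 15 reads in total) were tested with limma 3.58.1 (trend, two-sided) on log2(CPM + 1), R 4.3.3, with Benjamini-Hochberg adjustment and a threshold of 0.05. edgeR 4.0.16 on the recovered reads called 4893 genes; DESeq2 1.42.0, other scaling factors, filters and pseudocounts, a replicate block and leaving out each library were the other alternatives. The procedure was tested on simulated data. Folds are ratios of group mean CPM. A call needs an adjusted p under 0.05, and with 3 against 3 an exact permutation test cannot go below 0.1.

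The members and lists were chosen with earlier results of these data known. Every member was to be named, with 3 genes of each other list of lowest adjusted p (other cell types: highest mean CPM) and Vegfa, Angpt2, Gata4, Vcam1 and Pf4; further genes were named after their values were seen. Exon lengths are from GENCODE M21. Vegfd is listed as Figf, and of symbols listed more than once the assembled-chromosome row was used.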

Additional observations from a re-analysis of the deposited data

How the results depend on the processing

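Of the 11 vessel genes called, 5 (Stab1, Vwf, Gpr182, Lyve1 and Aplnr) kept their call under all 16 alternatives, and no member reversed a call. The genes changed overall stayed within 1.5 times of 5677 (3856 to 6298 without 1 library). Other scaling: the 4 vessel genes that were lower became 1 with TMM, median-of-ratios or upper-quartile factors and with edgeR, and 2 with DESeq2. The sinusoidal median log2 difference, 1.36, became 1.66 with TMM or median-of-ratios factors, 1.71 with upper-quartile factors, 1.76 with edgeR and 1.77 with DESeq2. That of the other vessel genes, -0.26, turned positive with every other scaling: 0.0052 with TMM and 0.010 with median-of-ratios factors, 0.058 with upper-quartile factors, 0.054 with edgeR and 0.062 with DESeq2, near the medians of all genes, which moved likewise. Without the filter 7 genes changed, 4 were higher and 3 sinusoidal genes were higher; the cause was not tested. Without 1 library, the changed genes numbered 5 to 11, those higher 4 to 7, those lower 1 to 4 and sinusoidal genes higher 3 to 5, with fewer samples in each fit; the medians ran from 1.14 to 1.39 and from -0.44 to -0.079. The changed count was 5 and 6 without Myc/Akt1 replicate 1 and 2, and 3 sinusoidal genes were called without either or without Myc/NrasG12V replicate 2. With the replicate block 12 genes changed, 8 higher, with Oit3 and Sox18 gained and Apln lost. The labels do not say whether replicate numbers pair the libraries. Same-numbered libraries deviated with correlations of -0.081, 0.11 and 0.085, and differently numbered ones with -0.136 to 0.087. So few values cannot decide whether there is a pairing. Depth limits Aplnr in Myc/NrasG12V, where it had 4, 5 and 1 reads and 1 read was worth 0.0459 to 0.0559 CPM. This limit covers counting error only.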

Other observations

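Genes of mural cells, the pericytes and smooth muscle cells around vessels, were measured beside the endothelial ones. Of 10 tested, 2 were higher and 1 lower in Myc/NrasG12V, or 20.0% and 10.0% against 10.0% and 29.5% of all genes, with a median log2 difference of 0.19 against -0.26. The pericyte gene Rgs5 had a mean of 49.2 CPM (SD 16.5, n = 3) against 43.5 CPM (SD 10.2, n = 3), and the smooth muscle actin gene Acta2 a mean of 39.7 CPM (SD 22.5, n = 3) against 34.9 CPM (SD 8.73, n = 3), neither past the test (limma adjusted p = 0.721 and 0.893). The 2 higher genes encode subunits of 1 ATP-sensitive potassium channel of mural cells: Kcnj8, at 31.2 against 3.47 CPM (limma adjusted p = 1.18e-04), and Abcc9, at 31.5, 36.0 and 71.4 CPM against 17.6, 23.5 and 15.8 CPM (limma adjusted p = 0.0172). The 1 lower was Cspg4, a proteoglycan of pericytes, at 0.976 against 2.36 CPM, which did not pass with TMM factors (adjusted p = 0.0739). Of 10 hepatocyte genes 4 were higher and 1 lower, or 40.0% and 10.0%, with Alb, Ahsg and Apoa1 the most abundant. Alb, at 110858 against 33563 CPM with groups that did not overlap, did not pass (limma adjusted p = 0.184), and it passed with edgeR (adjusted p = 0.00501).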
